A study of Mus musculus with 24 samples.

Results

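Potassium channel genes were taken as every row of the deposited tables whose symbol joins Kcn to a letter from a to v and a number. The pattern took 94 rows. The 3 antisense or opposite-strand transcripts among them (Kcnd3os, Kcnq1ot1 and Kcnmb4os2) were left out, which left 91 genes of 30270 in the tables. Of the 91, 79 had a mean value of at least 10 in at least 1 of the 8 tables, 76 had one in all 8, and 12 fell below 10 everywhere (Kcna10, Kcne1, Kcne2, Kcne3, Kcnj1, Kcnj15, Kcnk15, Kcnk16, Kcnk18, Kcnk7, Kcnn4 and Kcnv2). Kcnj13 reached 10 in 3 tables and Kcnk5 and Kcnq1 in 1 each. By family, the 91 were 39 voltage-gated alpha subunits, 12 auxiliary subunits of voltage-gated channels, 15 inward rectifiers, 14 two-pore channels, 8 calcium- or sodium-activated channels and 3 auxiliary subunits of BK channels. The 24 mRNA libraries came from bilateral micropunches of the nucleus accumbens (NAc) and the ventral tegmental area (VTA), 12 of each region, from C57BL/6 mice. Each region had 3 wild-type (VDR+/+) mice given PBS, 3 wild-type mice given morphine at 5 mg/kg, 3 Vdr-/- mice given PBS and 3 Vdr-/- mice given morphine, all intraperitoneally and 90 min before collection. Vdr-/- mice lack the vitamin D receptor in all tissues and were raised on a calcium-rich diet, which the methods state for no other mice, so genotype and diet cannot be told apart. The age of the mice at injection is not given for these libraries in the sources used here.

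Potassium channels let potassium leave the neuron and so hold the resting potential, end the action potential and set the firing rate. Inward rectifiers pass current mainly near rest, and among them the G protein-gated GIRK channels open when an opioid receptor releases its G protein beta and gamma subunits. Voltage-gated channels open on depolarization, two-pore channels carry leak current, and the SK and BK channels open with intracellular calcium. In the VTA, opioids act largely on GABA neurons that restrain dopamine neurons. The NAc, which those dopamine neurons innervate, is built mainly of medium spiny neurons, whose low resting potential is set by inward rectifiers.

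The libraries held between 9328726 and 30184426 reads on genes, and the 91 genes took 0.517% to 0.689% of them. The targeted gene, Vdr, held 0 to 17 reads per library and does not check the genotype labels. In the wild-type PBS mouse 2 NAc library, expression relative to the other libraries fell with exon length across genes (Spearman's rho −0.438, against −0.137 to 0.213 in the other NAc libraries). Counts that use it, and GIRK fold changes within the NAc, are therefore also given without it or as a range over libraries left out. The dissection was checked on cell type markers, as summed counts per 1000000 reads on genes (CPM). The 9 medium spiny neuron markers summed to 2464 to 5001 CPM in the NAc and 261 to 322 CPM in the VTA. The 7 dopamine neuron markers, Th and Slc6a3 among them, summed to 174 to 2784 CPM in the VTA and 27.8 to 40.6 CPM in the NAc, where Pitx3 and En1 were at or near 0. The 4 cortical excitatory neuron markers summed to 393 to 1138 CPM in the NAc and 7.29 to 163 CPM in the VTA. The 4 choroid plexus markers summed to 113 CPM in the VTA of Vdr-/- morphine mouse 2.1 and to 2.69 to 13.1 CPM elsewhere. The part of these cells in the region differences was not tested. Within the VTA the dopamine marker sum varied. It was 2237 to 2784 CPM in wild-type PBS mice, 174 to 501 in wild-type morphine mice, 465 to 2116 in Vdr-/- PBS mice and 532 to 1070.5 in Vdr-/- morphine mice. The deposited VTA tables of morphine against PBS lack wild-type PBS mouse 3 and Vdr-/- PBS mouse 8. The numbers in the labels are read here as mouse numbers. The labels do not say how the replicates were taken, so the p-values measure only the spread between these 2 or 3 samples per group, which may be technical.

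Levels are first compared between genes per length, as CPM per kilobase of exon (RPKM), with the mean ± SD over the 12 libraries of a region. Among the 10 highest in the NAc were Kcnab2, an auxiliary beta subunit of Kv1 channels (55.2 ± 4.31), Kcnip2, a calcium-binding auxiliary subunit of Kv4 channels (54.6 ± 9.32), and Kcnj4, the inward rectifier Kir2.3 (52.0 ± 9.39). Kcnj10, the glial inward rectifier Kir4.1, was at 41.2 ± 7.71 RPKM. Also among them were Kcnip3 (34.7), Kcnd2 (32.1), Kcnt1 (31.5) and Kcna1 (30.1 RPKM), whose ranges over libraries overlapped. In the VTA, Kcnj10 stood first at 109.5 ± 10.1 RPKM, and its lowest library (91.7) lay above the highest library of every other member (67.5, Kcnab2). Kcnab2 (58.1 ± 9.15) and Kcna2 (48.3 ± 6.54) were also high, with overlapping ranges. Kcna2 forms axonal Kv1 channels, and Kcnc1 (37.7 ± 3.49) forms Kv3 channels of fast-spiking neurons. Kcna6 (30.2), Kcnc4 (28.8), Kcna1 (28.2) and Kcnk1 (23.8 RPKM) were also among the 10 highest of the VTA. Of the summed RPKM of the 91 genes, voltage-gated alpha subunits took a median of 48.9% in the NAc and 50.4% in the VTA, auxiliary subunits 20.6% and 16.2%, inward rectifiers 16.1% and 20.6%, calcium- or sodium-activated channels 7.62% and 6.28%, two-pore channels 5.83% and 6.16% and BK auxiliary subunits 0.907% and 0.404%.

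**Figure D1:**
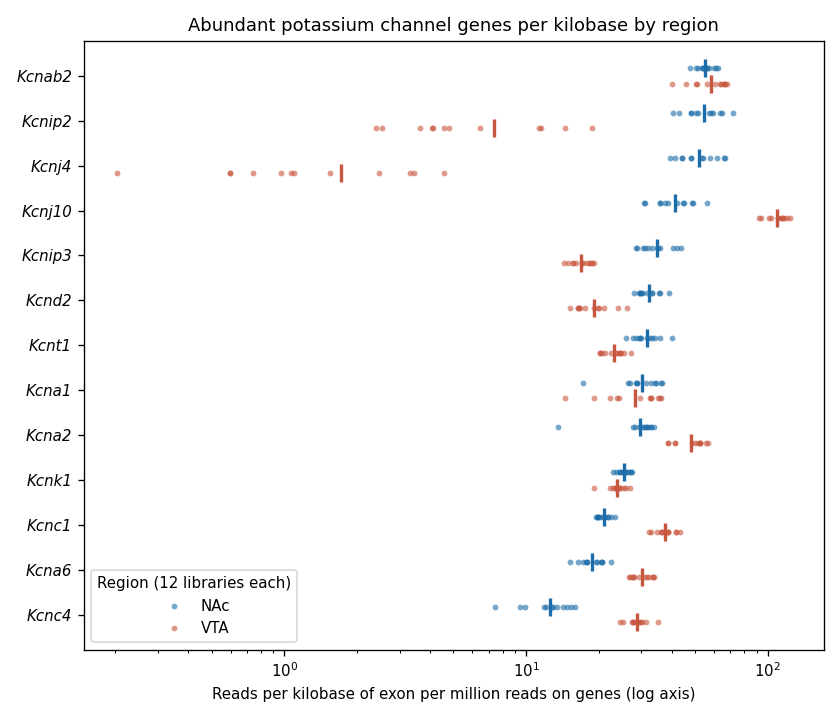
CPM per kilobase of exon (RPKM, log axis) of potassium channel genes among the 10 highest of either region. Points are the 12 NAc (blue) and 12 VTA (red) libraries and bars their means, and Kcnj4 and Kcnip2 lie far lower in the VTA while Kcnj10 lies higher there.

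The question of which channels separate the regions was put to all 24 libraries at once, as the log2 level in the NAc minus that in the VTA over the 4 combinations of genotype and injection. Of 76 genes tested, 65 differed (34 higher in the NAc, 31 higher in the VTA), in a comparison in which 73% of all 16147 genes tested passed the threshold (limma, adjusted p under 0.05). The median log2 difference was 0.02 over the members and −0.02 over all genes. The count was 67 without wild-type PBS mouse 2 of the NAc. In punches, fewer cells of a type and less RNA per cell cannot be told apart.

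Among inward rectifiers, 11 of 12 differed. Kcnj4 had the widest gap of all members: its lowest, median and highest RPKM were 39.4, 50.8 and 66.8 in the NAc and 0.204, 1.08 and 4.56 in the VTA (log2 difference 5.40 ± 0.32 SE, adjusted p = 3.85e-12). Kcnj2, the related Kir2.1, ranged over 5.70 to 10.5 RPKM in the NAc and 2.06 to 3.92 in the VTA (1.39 ± 0.08), also without overlap. The glial pair went the other way. Kcnj10 was 30.7, 40.4 and 56.0 RPKM in the NAc and 91.7, 112 and 124 in the VTA (−1.37 ± 0.05), and Kcnj16, its partner Kir5.1, differed by −1.38 ± 0.10, with no library of one region within the range of the other for either gene. The 6 astrocyte markers summed to 2837 to 4901 CPM in the NAc and 3079 to 4128 CPM in the VTA, and the 6 oligodendrocyte markers to 3727 to 5968 and 6108 to 13022 CPM. Their part in the difference was not tested. The GIRK subunits differed less than Kcnj4. The log2 difference was 0.28 for Kcnj3 (GIRK1) and −0.54 for Kcnj6 (GIRK2), both past the threshold with overlapping ranges, and −1.29 for Kcnj5 (GIRK4), past the threshold with overlap as well. For Kcnj9 (GIRK3) it was 0.00 (SE 0.07, adjusted p = 0.979). Kcnj9 and Kcnj3 were the most abundant GIRK subunits per length in both regions, at 14.3 ± 1.77 and 14.6 ± 3.16 RPKM in the NAc and 15.1 ± 3.41 and 12.4 ± 2.14 in the VTA, and Kcnj5 the least, at 0.679 ± 0.292 and 1.63 ± 0.492. The pore subunits of the ATP-sensitive channel split, with Kcnj11 (Kir6.2, 0.27) higher in the NAc and Kcnj8 (Kir6.1, −0.67) higher in the VTA.

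Of 36 voltage-gated alpha subunits, 19 were higher in the NAc and 13 higher in the VTA. The Kv3 genes Kcnc4 (−1.16), Kcnc2 (−0.94) and Kcnc1 (−0.78) were higher in the VTA, in log2 difference, each without overlap between the regions. The silent subunit Kcng4 was the furthest of the VTA genes, at 0.418, 0.549 and 0.986 RPKM (lowest, median, highest) in the NAc and 2.52, 9.79 and 14.3 in the VTA (log2 difference −3.73 ± 0.14 SE, adjusted p = 1.51e-15). Kcns3, another silent subunit, was 0.576, 0.775 and 1.01 RPKM in the NAc and 1.42, 3.20 and 7.16 in the VTA (−2.07 ± 0.10). Of the EAG family (Kcnh), which holds slowly gating channels, Kcnh3 (5.01), Kcnh4 (3.92), Kcnh1 (2.12), Kcnh5 (0.95) and Kcnh7 (0.88) were higher in the NAc and Kcnh2 (−0.89), the ERG1 channel, Kcnh8 (−0.64) and Kcnh6 (−0.21) higher in the VTA. The M-current subunits Kcnq5 (2.20) and Kcnq3 (0.80) were higher in the NAc. So were Kcnv1 (3.26), Kcng1 (2.97), Kcna5 (2.35), Kcnf1 (2.09) and Kcna4 (1.33). The A-type current genes divided, Kcnd2 (Kv4.2) at 0.83 and Kcnd3 (Kv4.3) at −0.62. Kcna2 was higher in the VTA (−0.67), and Kcna1 did not pass the threshold (0.18 ± 0.12).

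The auxiliary subunits divided as well, 3 of 9 higher in the NAc and 5 higher in the VTA. Kcnip2 was 40.6, 54.2 and 71.7 RPKM in the NAc and 2.39, 4.68 and 18.8 in the VTA (3.24 ± 0.26), and Kcnab1 differed by 2.68 ± 0.08, both without overlap. Kcnip3 (1.09) was also higher in the NAc, Kcnab3 (−1.15), Kcnip1 (−0.28) and Kcnip4 (−0.24) were higher in the VTA, and Kcnab2 showed 0.00 ± 0.06. Of the two-pore channels, 8 of 9 differed: Kcnk2 (TREK-1, 1.29) and Kcnk1 (TWIK-1, 0.16) were higher in the NAc, and Kcnk9 (TASK-3, −1.14), Kcnk10 (−0.96) and Kcnk3 (TASK-1, −0.80) higher in the VTA. The neuronal BK beta subunit Kcnmb4 (2.14) and the pore gene Kcnma1 (0.50) were higher in the NAc and Kcnmb2 (−1.06) in the VTA. Of the SK channels, Kcnn3 was higher in the NAc (0.40), and Kcnn1 (−0.13 ± 0.08) and Kcnn2 (0.05 ± 0.08) did not pass the threshold. Kcnj14 (−1.16), an inward rectifier, was higher in the VTA.

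**Figure D2:**
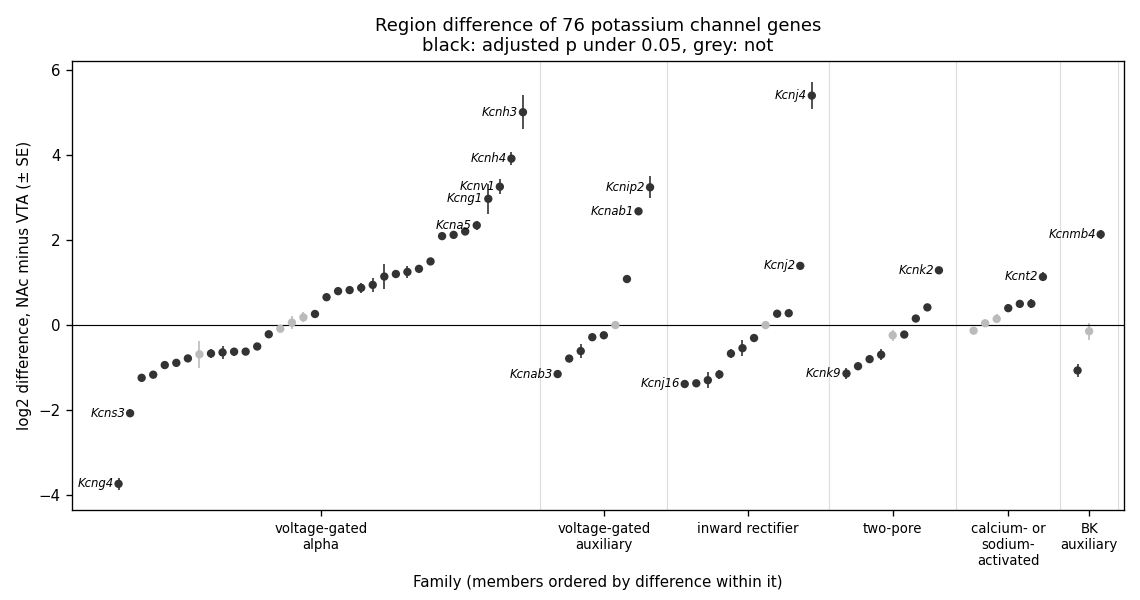
Log2 difference of NAc minus VTA, with its SE, of 76 potassium channel genes by family (n = 12 libraries per region). Genes past the threshold are black, and in each family with more than 3 members some genes lie above 0 and others below, from −3.73 for Kcng4 to 5.40 for Kcnj4.

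The promoters of 2 members from each end of the region difference are shown so that the sequence at the starts of the most region-biased genes can be seen. They are those with the widest difference among the called members that have an entry in the RefSeq promoter table (GRCm38.p6), which holds 66 of the 91 members, and each is the 250 bases before the first listed start, read 5′ to 3′ on the strand of the gene. Kcnj4 and Kcnh4 are higher in the NAc, Kcng4 and Kcns3 in the VTA. Capitals mark matches on either strand to any of 4 motifs. The GC box was searched as GGGCGG. The E-box was searched as CACGTG. The cyclic AMP response element (CRE) was searched as TGACGTCA. The TATA box was searched as TATAAA. No motif overlapped another in these windows, and Kcng4 held none. The 2 adjoining GC boxes of Kcnj4 form 1 run of capitals.
Kcnj4, chr15:79505242-79505491, minus strand: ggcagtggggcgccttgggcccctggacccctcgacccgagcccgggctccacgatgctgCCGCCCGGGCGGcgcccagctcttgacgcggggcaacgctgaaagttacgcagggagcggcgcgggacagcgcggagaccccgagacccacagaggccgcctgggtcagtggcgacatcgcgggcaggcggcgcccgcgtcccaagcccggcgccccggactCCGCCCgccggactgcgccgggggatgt
Kcnh4, chr11:100759779-100760028, minus strand: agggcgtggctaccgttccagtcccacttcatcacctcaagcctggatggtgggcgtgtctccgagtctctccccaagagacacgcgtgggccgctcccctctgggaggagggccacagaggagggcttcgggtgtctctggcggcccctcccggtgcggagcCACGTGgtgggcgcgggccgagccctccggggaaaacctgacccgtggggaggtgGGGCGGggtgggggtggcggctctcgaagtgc
Kcng4, chr8:119635681-119635930, minus strand: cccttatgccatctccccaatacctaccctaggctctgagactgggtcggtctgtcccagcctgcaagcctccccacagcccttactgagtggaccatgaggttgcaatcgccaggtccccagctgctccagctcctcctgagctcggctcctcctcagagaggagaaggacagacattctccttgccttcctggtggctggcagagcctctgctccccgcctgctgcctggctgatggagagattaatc
Kcns3, chr12:11150843-11151092, minus strand: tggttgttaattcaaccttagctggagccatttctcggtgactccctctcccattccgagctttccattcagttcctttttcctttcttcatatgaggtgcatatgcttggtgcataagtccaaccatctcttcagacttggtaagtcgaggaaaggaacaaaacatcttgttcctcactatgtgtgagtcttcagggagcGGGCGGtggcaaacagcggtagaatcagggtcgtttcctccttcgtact
A GC box was present in 51.5% of the 66 member promoters and 32.9% of 27025 promoters of the same length, and in 14 of 23 of the NAc-higher and 12 of 25 of the VTA-higher genes. A CRE was in 0 of 66 and 1.62% of all, a TATA box in 2 of 66 and 13% of all, and an E-box in 4 of 66 and 6.05% of all.

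Vdr-/- and wild-type mice were compared within each region and injection. No member passed the threshold (limma) in any of the 4 comparisons: 0 of 76 in the NAc with PBS and 0 of 76 with morphine, 0 of 78 in the VTA with PBS and 0 of 77 with morphine, where 0.069%, 0.192%, 0.39% and 0.0624% of all genes did. At an unadjusted p under 0.05 (limma) the counts were 8 of 76, 8 of 76, 18 of 78 and 14 of 77 members. Of all genes, 8.94%, 7.73%, 14.2% and 8.77% did so. The share of members was the higher in all 4, with the wider gaps in the VTA. edgeR also called 0 in each, and DESeq2 called 1, 0, 6 and 1. Leaving out any 1 library left 0 in both NAc comparisons. Without Vdr-/- PBS mouse 8, 6 members were called in the VTA with PBS. The median log2 fold change of the members lay between −0.05 and 0.05 in all 4.

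Kcnj6, a GIRK subunit of dopamine neurons, illustrates the spread in the VTA with PBS. It was 51.7, 46.3 and 49.9 CPM in wild-type and 29.4, 44.8 and 24.7 CPM in Vdr-/- mice 7, 8 and 9 (log2 fold change −0.64 ± 0.19 SE, adjusted p = 0.213). All 3 Vdr-/- values lay below the wild-type range, and the highest of them, mouse 8, was also the Vdr-/- PBS library with the highest dopamine marker sum (2116 CPM, against 1321 and 465). A link of Kcnj6 to these markers was not tested. After morphine the same gene was 31.9, 33.6 and 27.8 CPM in wild-type and 37.7, 38.6 and 42.3 CPM in Vdr-/- mice (0.35 ± 0.09, adjusted p = 0.416), with the Vdr-/- values above. The genotypes did not overlap, in either direction, for 20.5% of all genes with PBS and 14.5% with morphine in the VTA. The other GIRK genes had log2 fold changes of 0.12 (Kcnj3), −0.17 (Kcnj5) and 0.34 (Kcnj9) with PBS and −0.12, −0.40 and −0.14 with morphine in the VTA. In the NAc the values were 0.52 (Kcnj3), −0.31 (Kcnj5), 0.86 (Kcnj6) and 0.13 (Kcnj9) with PBS and 0.12, 0.15, 0.35 and −0.01 with morphine. Without wild-type PBS mouse 2 the NAc values with PBS were 0.27 (Kcnj3), −0.04 (Kcnj5), 0.24 (Kcnj6) and 0.09 (Kcnj9). For Kcnj6 that library held 6.45 CPM against 16.7 and 29.9 in mice 1 and 3.

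Morphine was compared with PBS within each region and genotype. In wild-type NAc, 3 of 76 members passed the threshold, with 0.813% of all genes. Kcnh4 (Kv12.3) was 57.1, 58.1 and 48.0 CPM with PBS and 29.4, 27.8 and 25.8 CPM with morphine (log2 fold change −0.996 ± 0.09 SE, adjusted p = 0.0157). Kcnh3 (Kv12.2) was 126, 146 and 127 and 94.2, 76.7 and 92.5 CPM (log2 fold change −0.63 ± 0.10 SE, adjusted p = 0.0468). Both fell without overlap. In this comparison the groups did not overlap, in either direction, for 25.5% of all genes. Kcnd3, which carries A-type current, rose from 83.5, 69.7 and 86.3 to 125, 130.0 and 142 CPM (log2 fold change 0.71 ± 0.12 SE, adjusted p = 0.0476). The number of calls depended on single libraries, while the log2 fold changes with 1 library left out stayed within −1.07 to −0.95 (Kcnh4), −0.68 to −0.53 (Kcnh3) and 0.59 to 0.78 (Kcnd3). Leaving out PBS mouse 2, the library with the length dependence, raised the count to 12. Leaving out morphine mouse 1.1, morphine mouse 1.2 or PBS mouse 1 took it to 0, and leaving out morphine mouse 1.0 or PBS mouse 3 took it to 1.

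In Vdr-/- NAc, 32 of 77 members passed (11 higher, 21 lower), against 19.1% of all genes. Lower genes came from every family but the BK auxiliary subunits: 13 of 37 voltage-gated alpha subunits, 4 of 9 auxiliary subunits, 2 of 12 inward rectifiers, 1 of 9 two-pore and 1 of 7 calcium- or sodium-activated channels. Kcnh5 (−0.89), Kcnh4 (−0.69) and Kcnh3 (−0.57) fell furthest. Kcnh3 went from 129, 124 and 127 CPM with PBS to 93.1, 89.1 and 81.8 CPM with morphine (adjusted p = 0.000177), and the groups did not overlap. Kcnj4 was 133, 116 and 124 CPM with PBS and 94.8, 94.7 and 89.0 CPM with morphine (log2 fold change −0.46 ± 0.06 SE, adjusted p = 0.000634). Kcnab1 was 243, 228 and 250.0 and 189, 179 and 178 CPM (log2 fold change −0.44 ± 0.05 SE, adjusted p = 0.000346). Kcnk2 was 90.4, 90.3 and 95.1 and 71.5, 69.7 and 71.4 CPM (log2 fold change −0.41 ± 0.05 SE, adjusted p = 0.000333). No morphine library of these 4 genes reached a PBS library. In this comparison 37.9% of all genes had no overlap between the groups, in either direction. The other named falls were Kcns1 (−0.55), Kcnip2 (−0.41), Kcng3 (−0.41), Kcnq5 (−0.39), Kcna1 (−0.37) and Kcnq3 (−0.36).

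Higher genes included both glial inward rectifiers. Kcnj10 was 167, 193 and 166 CPM with PBS and 244, 239.9 and 265 CPM with morphine (log2 fold change 0.47 ± 0.06 SE, adjusted p = 0.000634), and Kcnj16 was 12.3, 20.6 and 9.73 and 21.3, 22.7 and 25.7 CPM (log2 fold change 0.73 ± 0.20 SE, adjusted p = 0.0279). With 1 library left out at a time, Kcnj10 kept its call in 6 of 6 fits and Kcnj16 in 1 of 6. The summed astrocyte markers, 4148 to 4734 CPM with PBS and 4377 to 4857 with morphine, overlapped, and 4 of the 6 markers were higher in every morphine library. Their part in these rises was not tested. Kcnd3 rose here as well (log2 fold change 0.49 ± 0.09 SE, adjusted p = 0.00465). The remaining rises were Kcnh8 (1.29), Kcng4 (0.71), Kcnk10 (0.54), Kcnt2 (0.43), Kcnc4 (0.34), Kcnn2 (0.27), Kcnf1 (0.26) and Kcnn3 (0.15). With 1 library left out at a time, the call was kept in 6 of 6 fits for Kcnt2 and 5 for Kcnk10. It was kept in 3 for Kcnh8 and Kcnc4, 2 for Kcng4 and Kcnn2, 1 for Kcnf1 and 0 for Kcnn3. Kcnh8, at 0.423, 0.828 and 1.38 CPM with PBS and 1.66, 2.42 and 2.25 with morphine, and Kcng4 are low genes whose folds rest on few reads, and Kcnn3 lost its call after a correction for gene length and GC content (adjusted p = 0.178). That correction is given because the dependence on length differed with injection: rho was positive in all 12 morphine libraries and negative in 11 of the 12 PBS libraries. With the correction 33 members were called, 31 of them among the 32. Leaving out morphine mouse 2.1 or 2.2 took the count to 18 or 20.

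The medium spiny neuron markers moved with these changes in the NAc. They summed to 4356 to 5001 CPM with PBS and 2814 to 3582 with morphine in wild-type mice, and 3769.6 to 4367 and 2464 to 2823 in Vdr-/- mice. All morphine libraries lay below all PBS libraries for 6 of the 9 markers in wild-type and 9 of 9 in Vdr-/- mice, and none of the 9 was at 0. Over all genes the groups did not overlap, in either direction, for 25.5% in wild-type and 37.9% in Vdr-/- mice. Markers of other cells moved as well. The summed microglia markers were 233 to 259 CPM with PBS and 179 to 201 with morphine in wild-type mice and 218 to 231 and 180.1 to 198 in Vdr-/- mice, with 6 of 6 and 5 of 6 genes below every PBS library. In Vdr-/- mice 5 of 6 oligodendrocyte markers were lower (4106 to 4325 CPM summed with PBS, 3727 to 3941 with morphine) and 3 of 5 endothelial and mural markers higher (172 to 192 and 206 to 229). The part of these markers in the changes of Kcnj4, Kcnh3, Kcnh4, Kcnab1 and the other members was not tested. When the morphine changes of the genotypes were compared with each other in the NAc, 0 of 76 members passed (limma, with 2 at an unadjusted p under 0.05 and 0 by edgeR or DESeq2), as did 0% of all genes. The counts of 3 and 32 are therefore not shown to differ in size of change. Leaving out any 1 library also left 0 members in this comparison of genotypes. The GIRK genes had wild-type and Vdr-/- log2 fold changes of 0.29 and −0.11 (Kcnj3), 0.63 and 1.09 (Kcnj5), 0.84 and 0.33 (Kcnj6) and −0.12 and −0.26 (Kcnj9), none past the threshold. Without PBS mouse 2, which held 6.45 CPM of Kcnj6 against 16.7 and 29.9 in mice 1 and 3, the wild-type values were 0.04 (Kcnj3), 0.90 (Kcnj5), 0.22 (Kcnj6) and −0.17 (Kcnj9). With all libraries, the wild-type and Vdr-/- log2 fold changes were −0.48 and −0.46 for Kcnj4, −0.63 and −0.57 for Kcnh3, −0.50 and −0.44 for Kcnab1, 0.35 and 0.47 for Kcnj10 and −0.39 and −0.41 for Kcnk2. Without PBS mouse 2 the wild-type values of these genes other than Kcnh3 were −0.45 (Kcnj4), −0.53 (Kcnab1), 0.36 (Kcnj10) and −0.36 (Kcnk2). Not every gene called in Vdr-/- mice was so alike. Kcnh5 had mean RPKM of 2.86 with PBS and 2.70 with morphine in wild-type mice, and 4.05 and 2.21 in Vdr-/- mice. For Kcna1 the means were 28.2 and 29.5 in wild-type and 35.0 and 27.9 in Vdr-/- mice. These wild-type PBS means include mouse 2.

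**Figure D3:**
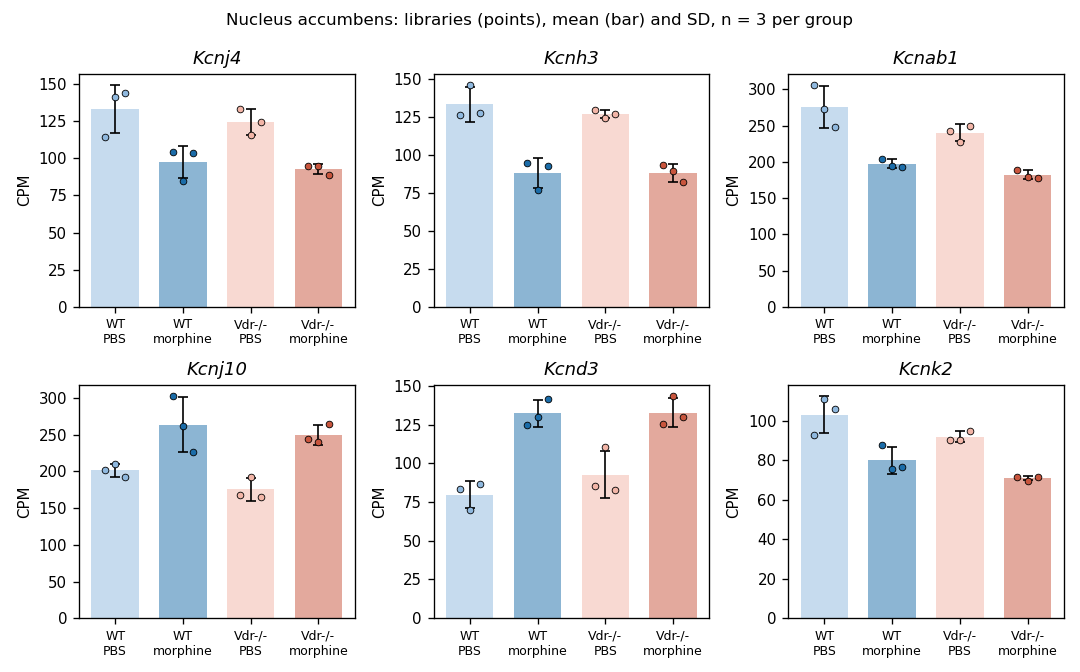
CPM of 6 potassium channel genes in the NAc by genotype and injection; points are libraries, bars the mean of 3 and error bars the SD. In both genotypes Kcnj4, Kcnh3, Kcnab1 and Kcnk2 were lower and Kcnj10 and Kcnd3 higher with morphine, with calls in wild-type mice for Kcnh3 and Kcnd3 only. Kcnh5 and Kcna1, also called lower in Vdr-/- mice, are not shown.

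In the VTA, each deposited table that sets morphine against PBS holds 5 libraries. In wild-type mice 12 of 76 members passed (8 higher, 4 lower), with 3.65% of all genes. The 4 lower genes were Kcns3, Kcnd3, Kcnj6 and Kcnn3. Of these, Kcnd3, Kcnj6 and Kcnn3 are known to shape the firing of dopamine neurons. The GIRK subunit Kcnj9 rose in the same comparison (log2 fold change 0.75). Kcnd3 was 259, 246 and 270.5 CPM in PBS mice 1, 2 and 3 and 124, 129 and 119 CPM with morphine (log2 fold change −1.06 ± 0.07 SE, adjusted p = 0.00345, from PBS mice 1 and 2). Kcnj6 was 51.7, 46.3 and 49.9 CPM and 31.9, 33.6 and 27.8 CPM (log2 fold change −0.69 ± 0.10 SE, adjusted p = 0.0258). Kcns3 was 22.6, 21.4 and 18.6 and 4.49, 9.02 and 5.22 CPM (−1.91 ± 0.29), and Kcnn3, the SK3 channel, 115, 98.1 and 104 and 77.1, 79.0 and 69.0 CPM (−0.53 ± 0.09). No morphine library reached a PBS library for any of the 4, PBS mouse 3 included. All 7 dopamine markers were likewise below every PBS library in the 3 morphine libraries (summed CPM 242, 501 and 174, against 2784, 2302 and 2237 with PBS), and none was at 0. Their part in the 4 falls was not tested. In the 5 libraries of this comparison, 44.3% of all genes had no overlap between the groups, in either direction.

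The 8 higher genes in wild-type VTA were Kcnf1 (1.42), Kcnmb4 (1.20), Kcnip2 (0.99), Kcnj9 (0.75), Kcns2 (0.73), Kcnq5 (0.61), Kcnh7 (0.49) and Kcnk3 (0.46). Kcnf1 was 13.2, 15.8 and 20.1 CPM with PBS and 41.5, 36.2 and 41.6 with morphine, and Kcnj9 45.2, 46.9 and 48.5 and 72.4, 89.0 and 77.2, both without overlap. Kcnip2 was 8.32, 8.83 and 40.1 and 22.5, 14.1 and 16.6: PBS mouse 3, which the table lacks, lay above all morphine libraries, and with it the log2 fold change was 0.26 (adjusted p = 0.784). That library also held 131 CPM of the 4 cortical excitatory neuron markers, against 7.39 and 21.1 in PBS mice 1 and 2. With all 3 PBS mice 23 members were called (17 higher, 6 lower), 10 of them among the 12. Leaving out PBS mouse 1 or 2 took the 12 calls to 0, but leaves 1 PBS library, which is then assumed to vary like the morphine group. Leaving out morphine mouse 1.2 took them to 2, and leaving out morphine mouse 1.1 to 33. Other markers moved as well. The 2 thalamus and midbrain glutamate neuron markers summed to 283 to 330 CPM with PBS and 413 to 556 with morphine. In Vdr-/- VTA they summed to 256 to 406 and 353 to 477 CPM. In wild-type VTA 4 of 6 astrocyte and 3 of 5 endothelial and mural markers were lower in every morphine library. The part of these markers in the changes was not tested.

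In Vdr-/- VTA 12 of 77 members passed (6 higher, 6 lower), with 10% of all genes. The lower genes included Kcng4 (−1.09), Kcns3 (−0.70), Kcna1 (−0.60), Kcnab3 (−0.55) and Kcnab2 (−0.31), among them the Kv1 gene Kcna1 and 2 beta subunits of Kv1 channels. Kcna1 was 168, 173 and 171 CPM in PBS mice 7, 8 and 9 and 116, 106 and 114 CPM with morphine (log2 fold change −0.60 ± 0.06 SE, adjusted p = 0.00598). Kcng4 was 54.4, 50.6 and 43.5 and 25.0, 20.2 and 23.5 CPM (log2 fold change −1.09 ± 0.13 SE, adjusted p = 0.00731). Neither gene's groups overlapped, mouse 8 included. In the 5 libraries of this comparison, 48.4% of all genes had no overlap between the groups, in either direction. The wild-type log2 fold changes of these 2 genes were −0.62 and −1.70, neither past the threshold, and wild-type morphine mouse 1.1 (156 and 31.1 CPM) lay far above the other 2 morphine mice (69.0 and 91.3 CPM of Kcna1, 9.61 and 14.1 of Kcng4). The oligodendrocyte markers, which mark white matter, were lower with morphine for 6 of 6 genes in both genotypes (summed CPM 11859 to 12284 and 7998 to 8849.6 in Vdr-/-, 11970.5 to 13022 and 6108 to 10029 in wild-type mice), with mouse 1.1 the highest of the wild-type morphine libraries. Microglia markers were also lower with morphine in the VTA, 6 of 6 in wild-type (219.8 to 258 CPM summed with PBS, 127 to 146 with morphine) and 5 of 6 in Vdr-/- mice (181 to 248 and 143 to 164). Their part in these falls was not tested.

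The higher genes in Vdr-/- VTA included Kcnn2 (0.62), Kcnj6 (0.54), Kcna3 (0.40), Kcnn3 (0.32) and Kcnh1 (0.31). Kcnj6 was 29.4, 44.8 and 24.7 CPM in PBS mice 7, 8 and 9 and 37.7, 38.6 and 42.3 with morphine, so that mouse 8, absent from the table, lay above every morphine library. Including mouse 8, the log2 fold change was 0.30 (adjusted p = 0.341), and those of Kcnn2 and Kcnn3 were 0.38 and 0.13, none past the threshold. With all 3 PBS mice 10 members were called, 8 of them among the 12. Leaving out PBS mouse 7 gave 0 calls and leaving out PBS mouse 9 gave 7, each again with 1 PBS library whose spread is assumed and not measured. Leaving out a morphine mouse gave 27 (mouse 2.0), 8 (mouse 2.1) or 4 (mouse 2.2). Across the 12 VTA libraries, Kcnd3 and Kcns3 were highest in the libraries with the highest dopamine marker sums, as the plot of these genes against the markers shows. The plotted genes are those called lower with morphine in wild-type VTA, so the order of the wild-type groups was set by this choice. A link to the markers was not tested.

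**Figure D4:**
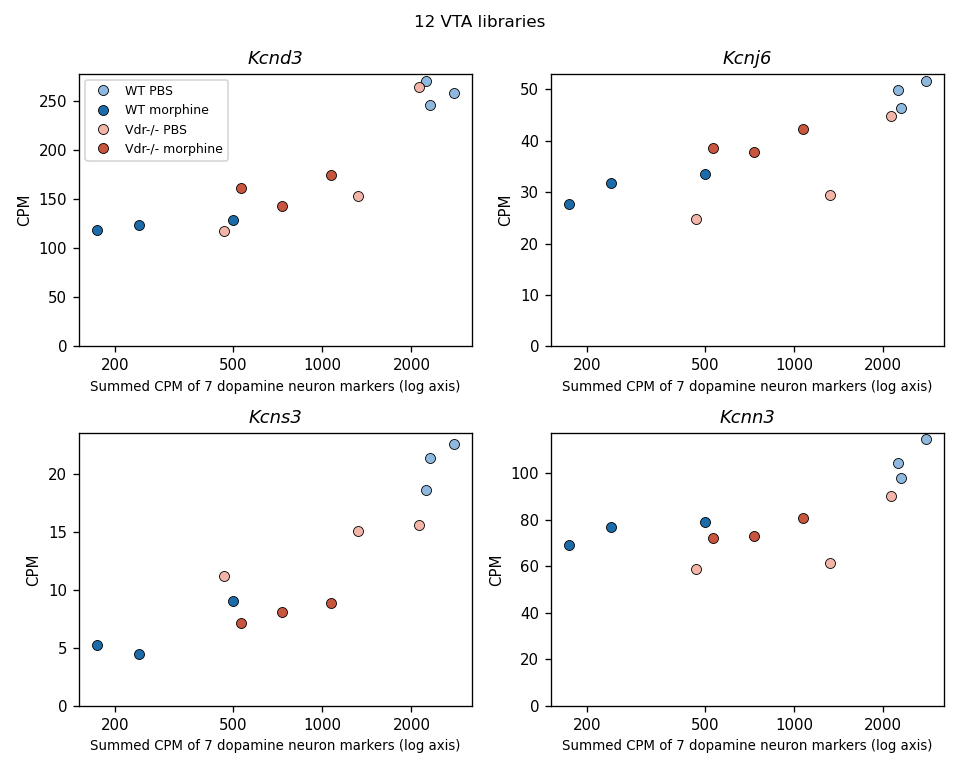
CPM of 4 potassium channel genes in the 12 VTA libraries against the summed CPM of 7 dopamine neuron markers (log axis). The 3 wild-type PBS libraries and Vdr-/- PBS mouse 8 stand at the right, at 2116 CPM of markers or more, and hold the highest values of all 4 genes. The 4 were chosen as called lower with morphine in wild-type VTA, which sets the order of the wild-type groups. A link to the markers was not tested.

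**Figure D5:**
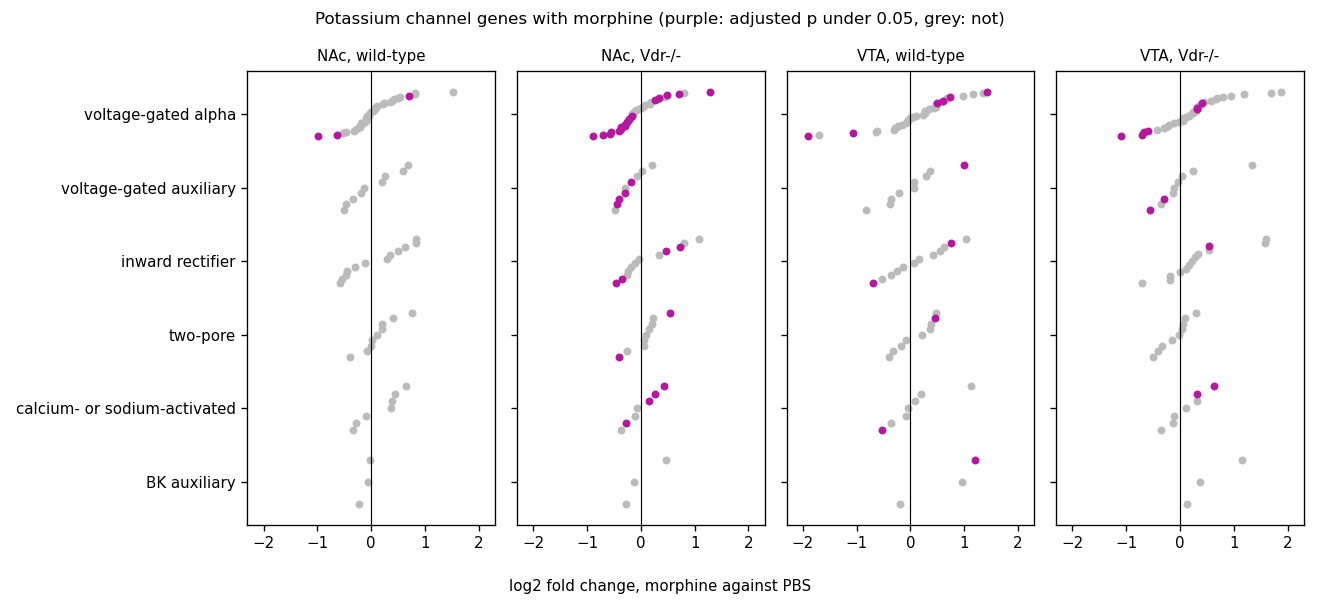
Log2 fold change of morphine against PBS by channel family in the 4 combinations of region and genotype, 76 or 77 genes per panel. Purple points passed the threshold (3, 32, 12 and 12 genes from left to right) and lie on both sides of 0 in every panel.

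The morphine changes of the genotypes differed in the VTA for 2 of 77 members, Kcnj6 and Kcnd3, in a comparison in which 0.0553% of all genes passed. It uses the 5 libraries of each genotype's table. Kcnj6 fell with morphine in wild-type mice (−0.69) and rose in Vdr-/- mice (0.54), a difference of 1.24 ± 0.15 on the log2 scale (adjusted p = 0.0437). For Kcnd3 the changes were −1.06 and 0.24, a difference of 1.30 ± 0.16 (adjusted p = 0.0437). The Vdr-/- value of Kcnd3 did not pass its own threshold. Both differences lost the threshold with all 3 PBS mice (0.99 and 1.00, adjusted p = 0.283 and 0.318) and after the length and GC correction (adjusted p = 0.0664 for both). Within the deposited tables the dopamine marker sum was lower in every morphine library of wild-type mice, while in Vdr-/- mice it was 1321 and 465 CPM with PBS and 532 to 1070.5 with morphine. The part of these markers in the genotype differences was not tested.

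Morphine changes also differed between the regions, averaged over the genotypes, for 23 of 76 members (7 with a more positive change in the NAc, 16 with a more positive change in the VTA), with 13.1% of all genes. Kcng4 (1.85), Kcnd3 (1.16) and Kcns3 (1.01) led the first group, in which Kcnj16 (0.84), Kcnab3 (0.67) and Kcnj10 (0.50) also stood. The second held Kcnh4 (−1.71), Kcna5 (−1.20), Kcnmb4 (−0.91), Kcnf1 (−0.85), Kcnk2 (−0.84), Kcna4 (−0.82), Kcnj2 (−0.81), Kcns2 (−0.74), Kcnj9 (−0.71), Kcnq5 (−0.68), Kcnj12 (−0.63) and Kcnh1 (−0.55) among its 16. Over 36 alternative settings Kcnab3 kept its call in 16 and Kcnj12 in 28, and the other genes named here in all 36. Kcnd3 thus rose with morphine in the NAc of both genotypes and fell in wild-type VTA, while Kcnk2 fell in Vdr-/- NAc and was 30.4, 32.5 and 37.6 CPM with PBS and 40.8, 45.3 and 38.9 with morphine in Vdr-/- VTA. Markers of several cell types moved with injection in both regions, as given above. Among them were the dopamine and oligodendrocyte markers of the VTA and the medium spiny neuron markers of the NAc. The part of these markers in the differences was not tested.

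Of 34 partner genes (auxiliary proteins, HCN channels, opioid receptors and G protein subunits), 31 were tested. None passed in the 4 genotype comparisons, in wild-type NAc with morphine or in either comparison of morphine changes between genotypes (limma). In Vdr-/- NAc, where 19.1% of all genes passed, 5 rose and 9 fell with morphine: Lrrc55 (0.69), Gng4 (0.44), Hcn3 (0.38), Gng2 (0.37) and Gnai2 (0.18) rose, and Oprk1 (−0.69), Gng7 (−0.50), Oprd1 (−0.43), Abcc8 (−0.34), Gnb4 (−0.31), Adam23 (−0.29), Gnb5 (−0.25), Gnao1 (−0.19) and Hcn2 (−0.17) fell. Oprk1 and Oprd1 are the kappa and delta opioid receptors, and Abcc8 is the sulfonylurea receptor that pairs with Kcnj11. The mu opioid receptor Oprm1, whose G protein opens GIRK channels, was the 1 that passed in wild-type VTA (3.65% of all genes) and rose (0.58 ± 0.11, adjusted p = 0.0402). This comparison lacks wild-type PBS mouse 3. Partner genes were fitted with the main settings only, so the dependence of their calls on single libraries was not tested. In Vdr-/- VTA (10% of all genes) Gng2 (0.28) rose and Hcn2 (−0.49) and Adam23 (−0.38) fell. Between regions, where 73% of all genes passed, 13 were higher in the NAc, led by Gng7 (4.02), and 13 in the VTA, led by the pacemaker channel Hcn4 (−1.54), and 7 passed in the comparison of morphine changes between regions (13.1% of all genes).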

How the data were processed

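mRNA was sequenced from 24 punch samples, 12 per region. Per the methods and processing notes, the authors used CASAVA 1.8, Trimmomatic 0.36 and STAR 2.4.2a. The deposited values are a signal per gene: read counts that the authors divided by DESeq2 size factors within each of 8 tables of 2 groups each. Multiplying back gave whole reads for 100% of values (tolerance 0.01). Every column entered the tests. The recovered reads of wild-type VTA morphine mouse 1.1 were taken only from its table with PBS. Groups came from the labels.

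Log2(value + 1) of genes with a mean of at least 10 was tested with limma 3.58.1 in R 4.3.3, moderated with a trend, with Benjamini-Hochberg adjustment over all genes tested and a threshold of 0.05. Fold changes on this scale understate those of low genes. The script was tested on simulated counts with the same dispersion for every gene and no dependence on length. It therefore does not show how the calls perform in these libraries. Region comparisons used recovered reads scaled over all 24 libraries, since no table holds both regions. edgeR 4.0.16 and DESeq2 1.42.0 on recovered reads were alternatives. In the order genotype (NAc PBS, NAc morphine, VTA PBS, VTA morphine), morphine (wild-type NAc, Vdr-/- NAc, wild-type VTA, Vdr-/- VTA), genotype by injection (NAc, VTA), region and region by injection, edgeR called 12, 29, 69, 10, 159, 3076, 628, 1764, 0, 8, 11881 and 2096 genes. Other alternatives were pseudocounts, filters, TMM scaling, a correction for exon length and GC content, and leaving out libraries. Replicates differed by more than sampling noise in all 24 pairs (chi-square per degree of freedom 3.99 to 34.5).

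Some items are not reported here, though they are in the counts. Otherwise named were the called members (at most 12 per direction), a set of role genes and the 10 highest per region. Leave-one-out values of 4 genes in wild-type NAc were added after the data were seen. The members and lists were chosen with earlier results of these data known. Reads of close paralogs may be split by the counting.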

Additional observations from a re-analysis of the deposited data

Results flagged for a closer look

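The morphine change differed between genotypes in the VTA, by a test of the difference itself, for Kcnd3 (1.30 on the log2 scale, Vdr-/- minus wild-type) and Kcnj6 (1.24). Both calls were lost with all 3 PBS mice of each genotype, after the length and GC correction and without a variance trend. Over 21 alternative settings the call was kept in 10 for Kcnd3 and 11 for Kcnj6. Some of these settings leave 1 PBS library in a group.

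The morphine change differed between regions, by the same kind of test and as the NAc change minus the VTA change, for 18 named genes. It was more positive in the NAc for Kcng4 (1.85), Kcnd3 (1.16), Kcns3 (1.01), Kcnj16 (0.84), Kcnab3 (0.67) and Kcnj10 (0.50). It was more positive in the VTA for Kcnh4 (−1.71), Kcna5 (−1.20), Kcnmb4 (−0.91), Kcnf1 (−0.85), Kcnk2 (−0.84), Kcna4 (−0.82), Kcnj2 (−0.81), Kcns2 (−0.74), Kcnj9 (−0.71), Kcnq5 (−0.68), Kcnj12 (−0.63) and Kcnh1 (−0.55). The calls of Kcnab3 and Kcnj12 were kept in 16 and 28 of 36 alternative settings, those of the others in all 36.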

How the results depend on the processing

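Pseudocounts of 0.5 and 5, other filters on low values, TMM scaling and edgeR on the libraries of each comparison kept every count of members called within 1.5 times. DESeq2 called 1 member in the NAc genotype comparison with PBS, 6 in the VTA with PBS and 1 in the VTA with morphine, and for morphine against PBS 11 in wild-type NAc, 21 in wild-type VTA and 19 in Vdr-/- VTA. edgeR on all 12 libraries of a region called 1 in the VTA genotype comparison with PBS, and for morphine 12 in wild-type NAc, 13 in Vdr-/- NAc, 29 in wild-type VTA (Kcnip2 at −0.11) and 6 in Vdr-/- VTA. Without a variance trend limma called 1, 15, 3 and 0 in these 4 morphine comparisons and 0 between genotypes in the VTA. The length and GC correction gave 5 in wild-type NAc and 0 between genotypes in the VTA. All 3 PBS mice gave 23 in wild-type VTA and 0 between genotypes, also 0 with the correction, a pairing of choices added after seeing the data.

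Leaving out 1 library at a time gave 0 to 6 calls in the VTA genotype comparison with PBS, 0 to 1 with morphine, 0 to 12 in wild-type NAc, 18 to 33 in Vdr-/- NAc, 0 to 33 in wild-type VTA, 0 to 27 in Vdr-/- VTA, 0 to 6 between genotypes in the VTA, 65 to 67 between regions and 21 to 25 for the morphine change between regions. Leaving out morphine mouse 2.2 gave 20 in Vdr-/- NAc, morphine mouse 1.2 gave 2 in wild-type VTA and PBS mouse 9 gave 7 in Vdr-/- VTA. In the VTA morphine comparisons, leaving out a PBS library leaves 1, assumed to vary like the morphine group, so those values say nothing about stability. Some GIRK values that had not passed changed sign. In the NAc genotype comparison with PBS Kcnj5 spanned −0.78 to 0.22 (0.223 without Vdr-/- mouse 7). With morphine Kcnj3 was −0.0833 without mouse 1.0, Kcnj5 −0.0837 without mouse 1.2 and −0.0121 without mouse 2.1, and Kcnj9 0.0689 without mouse 1.2 and 0.0384 without mouse 2.0. For morphine against PBS, Kcnj9 in wild-type NAc was −0.212 without PBS mouse 1 and 0.00616 without mouse 3, Kcnj3 in Vdr-/- NAc −0.173 without mouse 9 and 0.00922 without mouse 7, and Kcnj9 in Vdr-/- VTA −0.0396 without mouse 7 and 0.361 without mouse 9. The causes were not tested.

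The NAc and VTA libraries share mouse numbers, but the sources used here do not say that both punches came from one animal. Their deviations from group means correlated at −0.0522 to 0.203, over 0.1 in 5 of 12 pairs, and 8 of 12 libraries correlated best with their own number. With a replicate block on this number, 66 members differed between regions and 23 in morphine change (64 and 24 with the length and GC correction too), and a block on the digit of the mouse number left 0 in both genotype comparisons with morphine. It changed no other count by over 1.5 times. Depth limits the low genes: 12 members below a mean of 10 could not be tested.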
